A study of Mus musculus with 9 samples.

Results

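Mineral forms in bone where phosphate is plentiful and pyrophosphate is scarce, and 9 genes that bear on this balance were followed through osteoblast differentiation. They were chosen by their symbols as genes that make phosphate (Alpl and Phospho1), release its precursor (Smpd3) or import it (Slc20a1 and Slc20a2). Enpp1 and Ank were chosen as genes that make or export pyrophosphate. Enpp2, a relative of Enpp1, and Entpd5, a nucleoside diphosphatase gene, were added as related genes. All 9 were found among the 40526 genes shared by the deposited tables. RNA-seq had been performed on cells from the calvaria, the flat bones of the skull, of mice that the labels give as C57BL/6 at postnatal day 2-3. The methods name C57BL/6J pups, wild type or ColI-GFP, over a wider newborn age. Day 0 cells were confluent and undifferentiated, and day 4 and day 7 cells had been kept for 4 or 7 days in mineralization medium, which per the methods holds ascorbic acid and β-glycerol phosphate, an organic phosphate that alkaline phosphatase can split. Each stage had 3 libraries, for 9 in all, of primary cells, from pups of both sexes per the methods. The labels name no transgene or knockdown for these libraries, and how many pups each library pooled is not given in the sources used here. Cells that had mineralized were released with collagenase I before trypsin and the others with trypsin only, so the release of the cells changed with the stage. The methods describe the collagenase step for both day 4 and day 7 cells. The samples are bulk cultures, in which more cells of a type and more RNA per cell cannot be told apart.

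Hydroxyapatite, the mineral of bone, is laid down from calcium and inorganic phosphate, first in small vesicles that bud from osteoblasts and then along collagen. Pyrophosphate binds to the growing crystal and stops it. Alpl encodes the tissue-nonspecific alkaline phosphatase of the osteoblast surface and of matrix vesicles, which cuts pyrophosphate into phosphate and so removes the inhibitor and supplies the mineral. Phospho1 is a soluble phosphatase inside the vesicles that frees phosphate from phosphocholine and phosphoethanolamine. Smpd3 encodes a neutral sphingomyelinase, which releases phosphocholine from membrane sphingomyelin. Slc20a1 and Slc20a2 encode the sodium-dependent phosphate importers PIT1 and PIT2. Against them stand Enpp1, an ectoenzyme that makes pyrophosphate from nucleotide triphosphates outside the cell, and Ank, a membrane protein needed for pyrophosphate to appear outside the cell. Enpp2, or autotaxin, is a secreted relative of Enpp1 that makes the lipid mediator lysophosphatidic acid. Entpd5 is a nucleoside diphosphatase that releases phosphate.

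At day 7 the phosphatase genes Alpl and Phospho1 and the sphingomyelinase gene Smpd3 stood far above day 0 and above day 4. The pyrophosphate genes Enpp1 and Ank, in contrast, were highest at day 4 and then lower, though still above day 0. For Ank the day 4 and day 7 libraries lay close together and overlapped under other scalings of the libraries. The phosphate importers were also highest at day 4, and at day 7 neither passed the test against day 0. Levels below are RPKM, the reads of a gene scaled to its length and to the library's total, and errors are SD over 3 libraries. The test of day 7 against day 0 was limma, which steadies each gene's variance with those of all genes, on log2(CPM + 0.5), where CPM are reads scaled to the library's total only. P-values were adjusted after Benjamini and Hochberg over all 12712 genes tested, and an adjusted p under 0.05 counts as passing. Day 4 lies in tables of its own and its libraries are deeper, so stage, table and depth cannot be told apart for it, and day 4 was compared by the values of the libraries without a test.

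**Figure D1:**
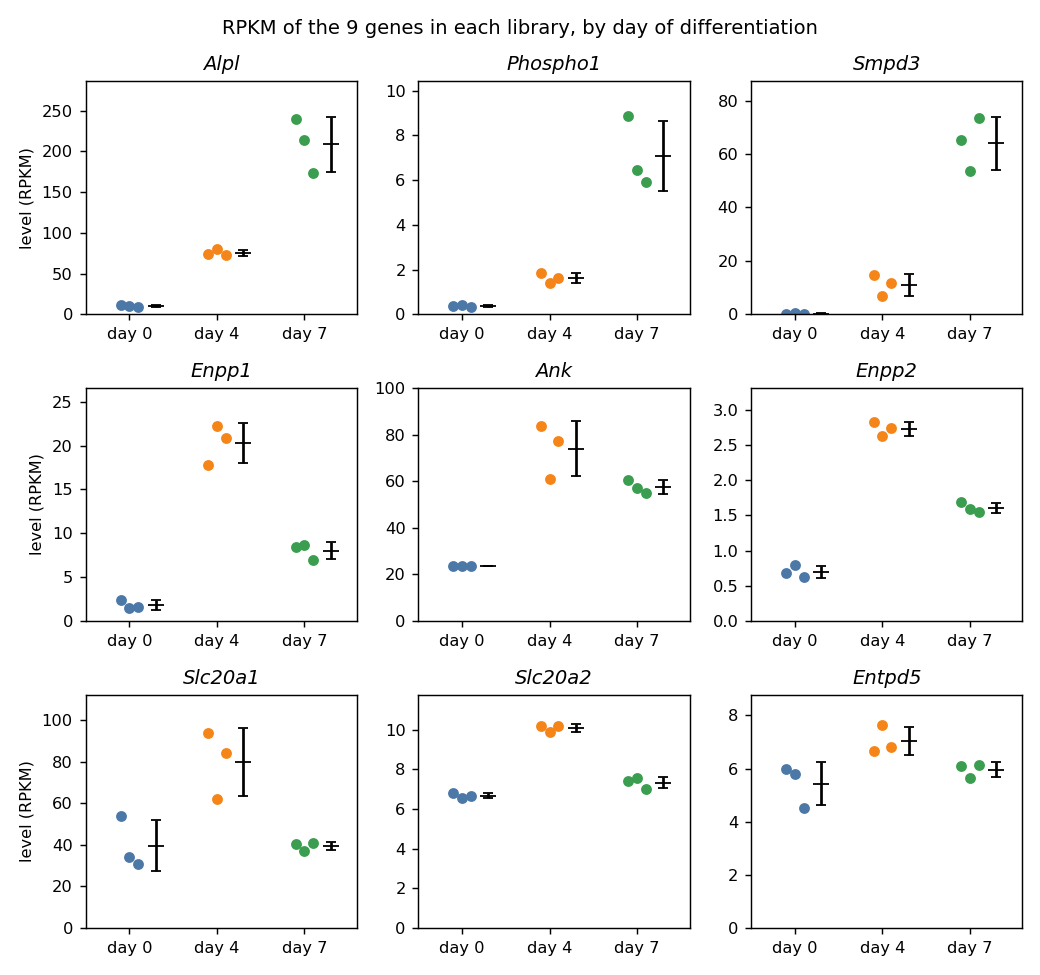
RPKM (vertical axes, linear from 0) of the 9 genes in each of the 9 libraries, by day of differentiation (horizontal axes). Coloured points are libraries and black bars are the mean and SD of 3 libraries. Alpl, Phospho1 and Smpd3 are highest at day 7, and the other 6 genes are highest at day 4.

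Reads on genes, recovered from the CPM, numbered from 7741204 to 14013219 per library at day 0, from 32820610 to 37306090 at day 4 and from 10675858 to 15622755 at day 7. Genes that hold ribosomal sequence (Gm42418, Lars2 and Mir6236) took 17.6% of the reads of day 0 replicate 3 and 11.2% of those of day 7 replicate 2, against 0.158 to 4.31% elsewhere, which lowers every other CPM and RPKM value of those 2 libraries. The osteoblast label fitted its markers at day 7, where 6 of 7 markers had risen over day 0, among them Ibsp and Bglap, and Runx2 had not passed the test (log2 fold change 0.23, limma adjusted p = 0.268). Of the 7 macrophage markers, 7 rose as well. Their summed level went from 43.8-74.2 RPKM at day 0 to 84.8-90.6 at day 4 and 81.6-107 at day 7, most of it Lyz2. Ptprc was the lowest of them and rose from 0.0366 mean RPKM at day 0 to 0.129 at day 7. The remaining markers had from 1.92 (Csf1r) to 6.95 (Cd68) mean RPKM at day 7. The 3 osteoclast markers that were tested rose, with sums of 101 to 134 RPKM at day 0, 237 to 244 at day 4 and 234 to 243 at day 7, nearly all of it Ctsk. The other markers that rose were Acp5, with 0.745, 7.6 and 6.59 mean RPKM at day 0, 4 and 7, and Atp6v0d2, with 0.205, 1.18 and 0.682. Calcr and Dcstamp, which also mark osteoclasts, were at or near 0. Of 7 chondrocyte markers tested, 3 rose and 3 fell, with sums of 168 to 483 RPKM at day 0 and 179 to 281 RPKM at day 7. Col2a1 fell from 239 ± 157 to 53.5 ± 34.3 RPKM, and Col9a1 and Sox9 fell as well. Col11a2 rose from 14.6 ± 10.1 to 141 ± 10.2 RPKM, the highest mean of these markers at day 7, and Col10a1 and Acan rose as well. Summed markers of adipocytes, endothelial cells, skeletal muscle and glia were at most 4.39, 0.459, 8.54 and 8.33 RPKM in any library, with Cidec and Lep for adipocytes and Emcn and Tie1 for endothelial cells at 0 throughout. The part of these cells in the results was not tested.

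The starts of the 4 genes that the contrast turns on are shown here, 2 phosphate makers that were higher at both steps and both pyrophosphate genes, since members that moved together can be compared in their upstream letters. Each line holds the 250 bases before the transcription start of the RefSeq gene on GRCm38.p6, 5′ to 3′ on the gene's strand, and the transcribed bases are left off. Capitals mark matches on either strand to the RUNX motif TGTGGT, to the AP-1 motif TGANTCA and to the GC box GGGCGG, which are binding letters of the osteoblast factor RUNX2, of FOS and JUN proteins and of SP-family factors.
Alpl, reverse strand, chr4:137796385-137796634: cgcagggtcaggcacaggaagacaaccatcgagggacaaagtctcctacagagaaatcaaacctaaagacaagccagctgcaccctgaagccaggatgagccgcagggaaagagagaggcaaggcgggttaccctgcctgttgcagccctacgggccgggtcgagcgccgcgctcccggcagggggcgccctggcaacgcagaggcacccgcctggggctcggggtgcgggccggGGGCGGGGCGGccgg
Phospho1, forward strand, chr11:95824250-95824499: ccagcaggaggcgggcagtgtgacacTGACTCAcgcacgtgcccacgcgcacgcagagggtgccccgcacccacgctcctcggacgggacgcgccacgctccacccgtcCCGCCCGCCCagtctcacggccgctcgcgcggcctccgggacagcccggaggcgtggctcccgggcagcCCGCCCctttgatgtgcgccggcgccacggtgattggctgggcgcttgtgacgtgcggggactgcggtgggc
Enpp1, reverse strand, chr10:24712160-24712409: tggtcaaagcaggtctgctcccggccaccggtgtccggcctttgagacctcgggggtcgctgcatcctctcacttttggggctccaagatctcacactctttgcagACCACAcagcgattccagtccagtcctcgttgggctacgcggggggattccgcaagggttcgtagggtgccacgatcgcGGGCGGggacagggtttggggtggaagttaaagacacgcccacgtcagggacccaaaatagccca
Ank, forward strand, chr15:27466427-27466676: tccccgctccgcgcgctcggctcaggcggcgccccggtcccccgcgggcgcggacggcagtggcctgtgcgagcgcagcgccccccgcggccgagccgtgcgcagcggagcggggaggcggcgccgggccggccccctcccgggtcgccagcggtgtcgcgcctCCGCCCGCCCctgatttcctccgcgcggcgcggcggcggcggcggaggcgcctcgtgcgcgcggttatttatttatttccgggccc
In these 4 windows the GC box matched 2 times in Alpl, 3 times in Phospho1, 1 time in Enpp1 and 2 times in Ank. Neighbouring matches overlap by 1 or 2 bases in Alpl, Phospho1 and Ank. The GC box was present in 32.7% of the 32851 starts in the table. The RUNX motif matched 1 time in Enpp1, beginning 144 bases before the start, and is present in 14% of all starts. The AP-1 motif matched 1 time in Phospho1, 224 bases before the start, and is present in 6.75% of all starts. The windows were rich in G and C, with 68.4% in Alpl, 75.6% in Phospho1, 61.2% in Enpp1 and 81.2% in Ank, against a median of 52.4% over all starts. Both pairs held GC boxes, and neither RUNX nor AP-1 letters were shared within a pair. Alpl and Slc20a1 each had another start inside the gene, Entpd5 had 1 start, and 6 of the 9 genes had an entry. The window before the outer start of Slc20a1 held 1 RUNX match, 77 bases before the start, and 2 GC boxes. The Entpd5 window held no RUNX, AP-1 or GC box match. The windows of Smpd3, Slc20a2 and Enpp2 were not analysed here.

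Alpl is a gene of the reverse strand of chromosome 4 (ENSMUSG00000028766, 137741733 to 137796384 in GENCODE M21 on GRCm38). Its level was 11.5, 10.1 and 8.36 RPKM in the day 0 libraries, 73.7, 80.0 and 73.0 at day 4, and 240, 214 and 173 at day 7. No library of one stage overlapped with another. The means were 10.0 ± 1.57, 75.6 ± 3.87 and 209 ± 33.6 RPKM, 7.56 times higher at day 4 than at day 0 and 2.77 times higher at day 7 than at day 4. Alpl rose from day 0 to day 7 by 4.37 on the log2 scale (SE 0.16, 95% CI 4.05 to 4.69, limma adjusted p = 1.25e-27), or 20.7-fold. It held from 261 to 650 reads per library at day 0 and from 9219 to 13223 at day 7. The exact permutation test gave p = 0.1 (two-sided), which is the smallest value that 3 libraries against 3 can reach.

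Phospho1, on the forward strand of chromosome 11 (ENSMUSG00000050860, 95824499 to 95832140), took the same course at a much lower level. The libraries had 0.351, 0.412 and 0.318 RPKM at day 0, 1.86, 1.40 and 1.61 at day 4, and 8.84, 6.46 and 5.93 at day 7. Every library of a later day exceeded every library of an earlier one. Mean RPKM was 4.51 times higher at day 4 than at day 0 and 4.36 times higher at day 7 than at day 4. On the log2(CPM + 0.5) scale it rose by 3.57 from day 0 to day 7 (SE 0.23, 95% CI 3.11 to 4.04, limma adjusted p = 3.98e-18), or 11.9-fold, against a ratio of mean RPKM of 19.6, because the added 0.5 CPM weighs on a gene with 5 to 10 reads in each day 0 library. In GENCODE M21 exons of Zfp652 on the same strand cover 89.6% of the exonic bases of Phospho1, exons of Abi3 on the opposite strand cover 84.2%, and 85.4% of the 50-base stretches of its transcripts also occur in transcripts of Zfp652. The strand setting of the counting is not given in the sources used here, so reads of Phospho1 and these genes may not be told apart. Only unambiguous reads were counted, so reads in shared exons may also have been left out, and the level of Phospho1 may be too low. M21 is newer than the annotation behind the counts, in which this overlap was not examined. Zfp652 had 70.5 to 81.7 CPM at day 0, 72.6 to 76 at day 4 and 78.4 to 90.9 at day 7, and did not pass the test (log2 fold change 0.15, limma adjusted p = 0.498). Abi3 had 0.428 to 1.03 CPM at day 0, 0.396 to 0.887 at day 4 and 3.65 to 4.68 at day 7, and rose by 2.06 (limma adjusted p = 9.74e-09), beside 2.84 to 3.78 CPM of Phospho1 at day 4 and 12 to 17.9 at day 7. The day 4 libraries therefore had more Phospho1 than day 0 at an Abi3 level that overlapped with day 0, and Abi3 and Phospho1 were both higher at day 7. The part of Abi3 in the day 7 level was not tested.

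Smpd3, on the reverse strand of chromosome 8 (ENSMUSG00000031906, 106252548 to 106337988), changed most of the 9 genes. It had 0.277, 0.341 and 0.276 RPKM at day 0, 14.7, 6.72 and 11.8 at day 4, and 65.1, 53.7 and 73.4 at day 7. The lowest library of each later stage was several times the highest of the stage before it. The means were 0.298 ± 0.0373, 11.1 ± 4.06 and 64.1 ± 9.92 RPKM, with day 4 at 37.2 times day 0 and day 7 at 5.78 times day 4. The log2 fold change from day 0 to day 7 was 7.34 (SE 0.17, 95% CI 6.99 to 7.68, limma adjusted p = 2.52e-35), or 161-fold, resting on 11 to 21 reads per library at day 0 and 2951 to 5910 at day 7. Day 4 replicate 2 was the lowest of its stage and had the most reads on genes of all libraries.

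Enpp1, which makes pyrophosphate, lies on the reverse strand of chromosome 10 (ENSMUSG00000037370, 24637914 to 24712159). It had 2.44, 1.49 and 1.56 RPKM at day 0, 17.8, 22.2 and 20.9 at day 4, and 8.44, 8.71 and 6.95 at day 7. The stages did not overlap, and day 4 stood above both others. Its mean was 11.1 times higher at day 4 than at day 0, the second largest step of the 9 genes after Smpd3, and 39.6% of the day 4 level was left at day 7, the smallest share among the members. From day 0 to day 7 Enpp1 rose by 2.13 on the log2 scale (SE 0.17, 95% CI 1.78 to 2.48, limma adjusted p = 2.21e-14), or 4.38-fold. The confidence interval of this fold change lies below those of Alpl, Phospho1 and Smpd3.

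Ank lies on the forward strand of chromosome 15 (ENSMUSG00000022265, 27466677 to 27594909). It had 23.5, 23.5 and 23.7 RPKM at day 0, 83.9, 60.8 and 77.2 at day 4, and 60.5, 57.1 and 54.8 at day 7. Day 0 was lowest and very even between libraries, while the lowest day 4 library exceeded the highest day 7 library by less than 1 RPKM. Once the 9 libraries were scaled to each other by the median of ratios, or once the genes with ribosomal sequence were left out of the totals (an alternative added after seeing the data), day 4 and day 7 overlapped for Ank. From day 0 to day 7 it rose by 1.28 on the log2 scale (SE 0.15, 95% CI 0.98 to 1.58, limma adjusted p = 1.29e-09), or 2.43-fold. At day 7, 77.7% of the day 4 mean was left.

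The phosphate importer Slc20a1, on the forward strand of chromosome 2 (ENSMUSG00000027397, 129198764 to 129211616), had 54, 34.2 and 30.9 RPKM at day 0, 94.0, 62.1 and 84.2 at day 4, and 40.2, 37.1 and 40.7 at day 7. Day 4 was above all libraries of both other stages, and the day 7 values lay within the range of day 0. The log2 fold change from day 0 to day 7 was 0.03 (SE 0.17, 95% CI -0.30 to 0.37, limma adjusted p = 0.912; exact permutation p = 1), so a change of over 0.37 either way lies outside the interval. That interval rests mostly on the variances of all genes, so it may be narrower than the spread of this gene's own libraries would give. The sign of the fold change depended on single libraries, with 0.27 without day 0 replicate 1, the highest of its stage, and -0.13 without day 0 replicate 3, and no such value passed the threshold.

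Slc20a2, on the forward strand of chromosome 8 (ENSMUSG00000037656, 22476788 to 22569612), was lower and more even. Its libraries had 6.80, 6.58 and 6.65 RPKM at day 0, 10.2, 9.87 and 10.2 at day 4, and 7.42, 7.57 and 7.01 at day 7. The 3 stages did not overlap, but the day 7 mean exceeded the day 0 mean by only 1.10 times. The log2 fold change was 0.13 (SE 0.17, 95% CI -0.20 to 0.47) and missed the threshold (limma adjusted p = 0.589; exact permutation p = 0.1). It passed with library weights after TMM scaling, the approach the study used, at a log2 fold change of 0.30 (adjusted p = 0.0294).

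Enpp2, or autotaxin, on the reverse strand of chromosome 15 (ENSMUSG00000022425, 54838901 to 54952892), was the least abundant gene at day 7. It had 0.678, 0.794 and 0.632 RPKM at day 0, 2.83, 2.63 and 2.74 at day 4, and 1.69, 1.59 and 1.55 at day 7. Its course resembled that of Enpp1, with day 4 above day 7 and day 7 above day 0 in every library. It rose by 1.06 on the log2 scale from day 0 to day 7 (SE 0.22, 95% CI 0.60 to 1.51, limma adjusted p = 0.000206), or 2.08-fold, from 17 to 33 reads per library at day 0.

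Entpd5, on the reverse strand of chromosome 12 (ENSMUSG00000021236, 84373857 to 84409029), had the smallest spread of stage means of the 9 genes, with day 4 at 1.30 times day 0. Its level was 6.00, 5.79 and 4.51 RPKM at day 0, 6.65, 7.65 and 6.83 at day 4, and 6.08, 5.63 and 6.14 at day 7. Day 4 lay above the other stages by a small margin, and day 0 and day 7 overlapped. The log2 fold change from day 0 to day 7 was 0.14 (SE 0.17, 95% CI -0.19 to 0.47, limma adjusted p = 0.564; exact permutation p = 0.5). Median-of-ratios scaling gave 0.25, which passed (adjusted p = 0.0218), as did edgeR with 0.24 (adjusted p = 0.0268) and library weights with 0.23 (adjusted p = 0.0189).

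**Figure D2:**
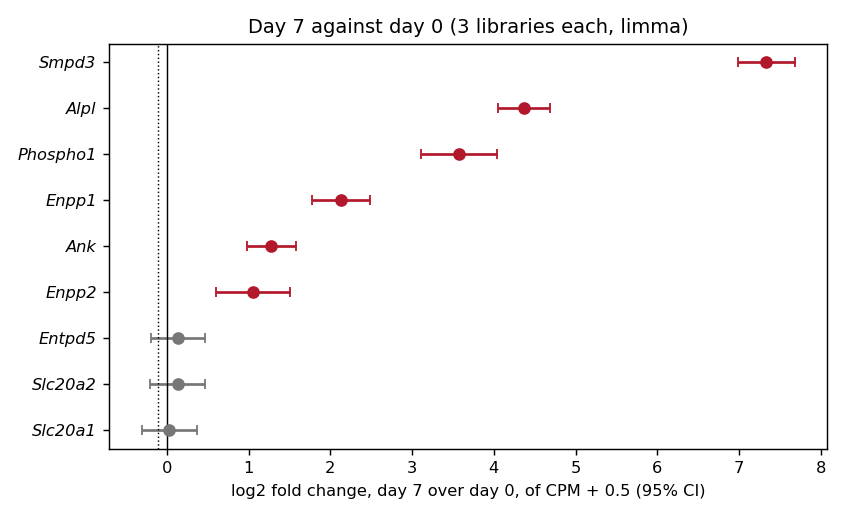
Log2 fold change of CPM + 0.5 from day 0 to day 7 (horizontal axis) for the 9 genes (vertical axis), with 95% confidence intervals from limma, 3 libraries per stage. Red marks an adjusted p under 0.05, the solid line is 0 and the dotted line is the median of all genes tested, -0.11. Smpd3, Alpl and Phospho1 lead, followed by Enpp1, Ank and Enpp2, and 3 intervals include 0.

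By this test 6 of the 9 genes were higher at day 7 than at day 0, against 12.6% of all genes tested, and 0 were lower, against 18.6%. Of all genes, 1602 were higher and 2369 lower with the values as deposited, and 2843 and 2612 after median-of-ratios scaling. No member was lower at an unadjusted p under 0.05 either, nor with edgeR, DESeq2 or voom with library weights on the recovered reads. All genes had a median log2 fold change of -0.11, and median-of-ratios scaling moved it to -0.01. The 6 genes that rose lay above either value by their whole confidence interval. Their calls held in every alternative run in which they were tested, among them each library left out in turn.

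At the step from day 0 to day 4, 9 of 9 genes had day 4 libraries that all exceeded the day 0 libraries, as did 21.6% of 12782 genes, and 0 were lower in every library, as were 21.9% of all genes. From day 4 to day 7 the genes parted. Alpl, Phospho1 and Smpd3, 3 of the 9, had day 7 libraries that all exceeded those of day 4, a pattern of 13.6% of all genes. The other 6 were lower in every library, a pattern of 25% of all genes. Being above both day 0 and day 7 at day 4 was the pattern of these 6 and of 8.07% of all genes, and being higher at both steps was the pattern of Alpl, Phospho1 and Smpd3 and of 3.07% of all genes. Median-of-ratios scaling took Ank out of the day 4 peak and left 5 members in it, with 9.22% of all genes in that pattern and 5.1% higher at both steps. Leaving out any one library kept the same genes in each pattern.

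The balance between the roles was then described by ratios within each library, which do not depend on the library's total. The ratio of Alpl to Enpp1 was 5.62 ± 1.07 at day 0, 3.75 ± 0.353 at day 4 and 26.0 ± 2.13 at day 7. Every day 4 library had a lower ratio than every day 0 library, and every day 7 library a higher one. The ratio of Phospho1 to Enpp1 followed the same path, with 0.208 ± 0.0662, 0.0817 ± 0.0212 and 0.881 ± 0.154. The mean day 7 ratio was 4.62 times that of day 0 for Alpl to Enpp1 and 4.23 times for Phospho1 to Enpp1. The size of the ratio with Phospho1 has the limit of the Phospho1 reads given above. The ratio of Alpl to Ank had no dip, with 0.424 ± 0.0686, 1.05 ± 0.236 and 3.62 ± 0.415, and ended at 8.54 times its day 0 value. At day 0 Ank RNA was therefore more abundant per length than Alpl RNA, and at day 7 Alpl exceeded it. Against Enpp1, Alpl was ahead at every stage, by the least at day 4.

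**Figure D3:**
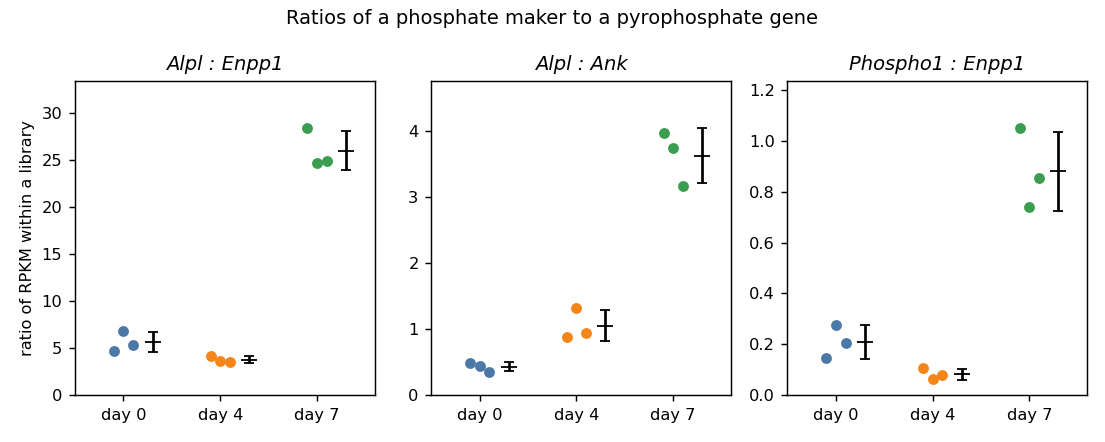
Ratio of RPKM within a library (vertical axes, linear from 0) of Alpl to Enpp1, Alpl to Ank and Phospho1 to Enpp1, by day of differentiation. Points are libraries and black bars the mean and SD of 3 libraries. Day 7 is highest in all 3 panels, and day 4 is lowest in the panels with Enpp1.

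Summed by role, the phosphatases Alpl and Phospho1 started at 10.4 ± 1.59 RPKM on day 0 and reached 77.2 ± 3.69 on day 4 and 216 ± 35.0 on day 7, nearly all of it Alpl. The pyrophosphate genes Enpp1 and Ank summed to 25.4 ± 0.473, 94.2 ± 9.91 and 65.5 ± 3.62 RPKM. The importers Slc20a1 and Slc20a2 summed to 46.4 ± 12.6, 90.2 ± 16.5 and 46.7 ± 1.72 RPKM. Importer RNA was thus the most abundant of these groups at day 0 and phosphatase RNA at day 7. The sums are led by 1 gene each, Alpl, Ank and Slc20a1.

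The order of the levels per length turned over in the course of differentiation. At day 0 Slc20a1 (39.7 RPKM), Ank (23.6) and Alpl (10.0) led, followed by Slc20a2 (6.68), Entpd5 (5.43), Enpp1 (1.83) and Enpp2 (0.701), and Phospho1 (0.361) and Smpd3 (0.298) were last. Only the libraries of Phospho1 and Smpd3 overlapped between neighbours there. At day 4 Slc20a1 (80.1), Alpl (75.6) and Ank (73.9) overlapped at the top, and Smpd3 (11.1), Slc20a2 (10.1) and Entpd5 (7.04) stood below Enpp1 (20.3). The libraries of Smpd3 spanned those of Slc20a2 and overlapped with those of Entpd5, and Enpp2 (2.73) and Phospho1 (1.62) came last. At day 7 Alpl (209) led alone, Smpd3 (64.1) overlapped with Ank (57.5), and Slc20a1 (39.4) came next. Enpp1 (8.03), Slc20a2 (7.33), Phospho1 (7.07) and Entpd5 (5.95) formed a group in which each overlapped with the next, and Enpp2 (1.61) was last. Smpd3 thereby moved from the bottom of the order to the second place. These levels depend on the gene models, whose lengths ran from 2.03 kb for Phospho1 to 10.3 kb for Enpp1. The place of Phospho1 in the order also has the limit of its reads given above. Genes on the opposite strand share 8.1% of the exonic bases of Slc20a1 (9830144P21Rik), 5.97% of those of Enpp2 (Gm26684) and 4.72% of those of Smpd3 (Prmt7), so a small part of these reads may belong to them.

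The genes whose course was most like that of Alpl, Phospho1 and Enpp1 were listed by Pearson's r of log2(RPKM + 0.5) over the 9 libraries, among 10007 other genes with a mean of at least 2 RPKM. The libraries fall into 3 stages, so r mostly follows the stage means and is a description. For Alpl these were Gprc5c, Myom1 and Loxl4 (r = 0.997 each) and Col24a1 and Spns2 (0.996 each), of which Loxl4 encodes a lysyl oxidase that cross-links collagen and Col24a1 a fibrillar collagen of bone. An r of at least 0.9 with Alpl was reached by 466 genes. For Phospho1 they included Lifr, the receptor of leukemia inhibitory factor (0.994), and Fat3, Mical3 and Dpm3 (0.992 each), with 223 genes at 0.9 or above. For Enpp1 they were the fatty acid transporter Slc27a1 (0.994), the G protein regulator Rgs16 (0.993), the transglutaminase Tgm2 and the small GTPase Gem (0.992 each) and the matrix protein Podnl1 (0.989), with 300 genes at 0.9 or above. Rgs16, for instance, had 1.27, 33.9 and 10.5 mean RPKM at day 0, 4 and 7, and Lifr had 7.32, 14.0 and 31.6.

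The genes around these reactions were examined as 9 lists written for this purpose, of which 67 genes were abundant enough to be tested. At day 7, 22 of the 67 had risen, 10 had fallen and 35 had not passed the test, with a median log2 fold change of 0.07 beside -0.11 for all genes. Among all genes 12.6% rose and 18.6% fell. The count of genes that fell was 22 without day 0 replicate 3 and 7 to 8 without any other library, and that of genes that rose was 20 to 23.

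The list of phosphocholine and sphingomyelin genes holds makers and breakers of both. Of its 16 genes tested, 3 rose and 3 fell, with a median of -0.14, and both shares lie near those of all genes. After median-of-ratios scaling 5 rose, and by voom with library weights 5 fell. Sgms2, which makes sphingomyelin, the substrate of Smpd3, went from 2.32 ± 0.358 RPKM at day 0 over 28.5 ± 4.95 at day 4 to 96.0 ± 9.12 at day 7, and rose by 5.33 on the log2 scale (SE 0.16, limma adjusted p = 2.27e-31). Its level was higher at each step, as were those of Smpd3 and Phospho1. Its relative Sgms1, which also makes sphingomyelin, had 6.49, 5.29 and 4.67 mean RPKM at day 0, 4 and 7. Sgms1 fell by 0.46 (limma adjusted p = 0.0237) and was singled out after its values were seen. Slc44a1, a choline transporter, had 13.4, 26.6 and 43.6 mean RPKM and rose by 1.71, and Smpd1, the acid sphingomyelinase, rose by 0.48 (limma adjusted p = 0.0163, and 0.14 without day 7 replicate 1). Both were singled out after their values were seen. Pcyt1b, which makes the activated form of choline, fell by 0.94 at a level under 1 RPKM, and the ceramidase Asah1 fell by 0.49, with an adjusted p of 0.0118 that was 0.0614 without day 0 replicate 1, 0.102 without day 0 replicate 2, 0.0557 without day 7 replicate 1 and 0.0665 without day 7 replicate 3. In this list 1 gene, Pcyt1b, fell when any one of those 4 libraries was left out, so Sgms1 did not pass in those runs either. Without day 0 replicate 3, 9 genes fell.

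Of the genes of ATP release and purinergic receptors, which supply and sense the nucleotides that Enpp1 uses, 3 of 7 rose and 1 fell, with a median of 0.37. The count that rose was 5 after median-of-ratios scaling and by edgeR, DESeq2 and voom with library weights, and 1 when a mean CPM of at least 5 was required. The channel gene Panx3 went from 2.91 ± 1.21 RPKM at day 0 over 47.3 ± 6.33 at day 4 to 95.5 ± 15.9 at day 7, and rose by 5.01 (SE 0.19, limma adjusted p = 2.49e-27). Its relative Panx1 fell by 0.98, from 6.72 ± 1.55 to 3.30 ± 0.585 RPKM. The gap junction gene Gja1 was the most abundant at 89.9, 134 and 105 mean RPKM, with a log2 fold change of 0.24 that missed the threshold (limma adjusted p = 0.26) and passed after median-of-ratios scaling (adjusted p = 0.0179). The list of extracellular nucleotide breakdown also holds adenosine receptors, and 4 of its 7 genes tested rose and 1 fell, with a median of 0.5. By edgeR, by voom with library weights and after median-of-ratios scaling 2 fell. Only 3 rose when day 0 replicate 1 or 2 or day 7 replicate 1 or 3 was left out. The same count rose on RPKM, with replicate number as a block, and when a mean CPM of at least 5 was required. Entpd3 had 0.663, 2.08 and 12.6 mean RPKM and rose by 4.05, and Nt5e, the ectonucleotidase CD73 that turns AMP into adenosine, had 2.17, 9.48 and 11.8 and rose by 2.48. Ada, which deaminates adenosine, fell by 2.21, from 8.46 ± 2.08 to 1.62 ± 0.414 RPKM.

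In the list of ENPP relatives and other alkaline phosphatases, 4 genes were tested, 1 rose and 1 fell, with a median of -0.03. The other alkaline phosphatase genes Alppl2, Alpi and Akp3 were listed at 0 in all 9 libraries, as was Enpp7, so of these alkaline phosphatase genes only Alpl had reads. Enpp6, which splits choline phospholipids, had 2, 2 and 3 reads in the day 0 libraries, 116, 174 and 132 at day 4 and 102, 108 and 84 at day 7, and rose (limma adjusted p = 2.26e-15). Its day 0 libraries are at the floor of 3 reads, so no fold is given. Enpp4 fell by 0.72, from 2.00 ± 0.0676 to 1.18 ± 0.0557 RPKM. Enpp5, the most abundant of the list, had 6.71, 3.62 and 6.09 mean RPKM, lowest at day 4, which is the opposite of the course of Enpp1.

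Lysophosphatidic acid is the product of Enpp2, and of 8 genes of its receptors and phosphatases 2 rose and 3 fell, with a median of -0.3. The receptor Lpar3 had 3, 5 and 0 reads in the day 0 libraries, 136, 197 and 159 at day 4 and 105, 109 and 146 at day 7, and rose (limma adjusted p = 4.89e-17). Since 2 of its 3 day 0 libraries are at or under the floor of 3 reads, no fold is given. The receptor Lpar4 fell by 1.51, from 6.56 ± 2.32 to 2.11 ± 0.132 RPKM, and the phosphatase Plpp1, the most abundant of the list, fell by 0.71, from 97.0 ± 12.4 to 59.5 ± 9.50 RPKM. Lpar1, the most abundant receptor, had 37.4, 40.1 and 33.8 mean RPKM at day 0, 4 and 7. It did not pass the test (log2 fold change -0.14, limma adjusted p = 0.543) and was singled out after its values were seen. Lpar3 and Lpar4, receptors of the same lipid at lower levels, thus moved in opposite directions.

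Of the other phosphate transport and intracellular pyrophosphatase genes, 5 were tested, of which 0 rose by limma and 1 fell, with a median of -0.15, and the counts of genes that rose were 0 at an unadjusted p under 0.05 and 1 each by edgeR, DESeq2 and voom with library weights. The exporter Xpr1 fell by 0.70 (limma adjusted p = 0.000592), from 3.93 ± 0.278 to 2.41 ± 0.155 RPKM, and the mitochondrial phosphate carrier Slc25a3 had 57.7, 45.0 and 52.0 mean RPKM. Of the 3 zinc transporters that load alkaline phosphatase with its metal, 0 rose and 0 fell by limma, also at an unadjusted p under 0.05, and 1 rose and 0 fell by each of the other tools. That gene was Slc30a5, with 28.5, 29.8 and 33.3 mean RPKM and a log2 fold change of 0.23 by limma (adjusted p = 0.281). Of 7 annexins of matrix vesicles, 0 passed by limma in either direction, and an unadjusted p under 0.05 was reached by 0 higher and 1 lower annexin. By edgeR 0 annexins rose and 1 fell, by DESeq2 1 rose and 1 fell, and by voom with library weights 2 rose and 1 fell. Anxa5 was the most abundant with 400 ± 42.7, 501 ± 18.8 and 381 ± 11.1 RPKM.

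Of the regulators of phosphate and inhibitors of mineral, 9 of 10 genes rose and 0 fell by limma, with a median log2 fold change of 1.6. The count that fell was also 0 at an unadjusted p under 0.05 and by edgeR, DESeq2 and voom with library weights. Dmp1, a matrix protein of osteocytes, went from 0.196 ± 0.0736 RPKM at day 0 over 80.2 ± 15.9 at day 4 to 82.8 ± 34.2 at day 7, and rose by 7.73 (SE 0.21, limma adjusted p = 7.06e-33). Spp1, or osteopontin, which binds crystals and inhibits their growth, was the most abundant gene of these 9 lists, with 961 ± 133, 5750 ± 710 and 3270 ± 685 RPKM, and rose by 1.76 from day 0 to day 7. Its highest level was at day 4, as for Enpp1 and Ank. Phex, which encodes an endopeptidase of mineralizing cells, rose by 5.14 and Galnt3, a glycosyltransferase that acts on the phosphate hormone FGF23, by 3.06. Both were singled out after their values were seen. Fgf23 itself, in the same list, had at most 3 reads in any library. Alternatives without day 0 replicate 3 raised the number of genes that fell to 2 in the nucleotide breakdown list, 2 in phosphate transport, 5 for lysophosphatidic acid, and 1 each for zinc transporters and annexins.

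**Figure D4:**
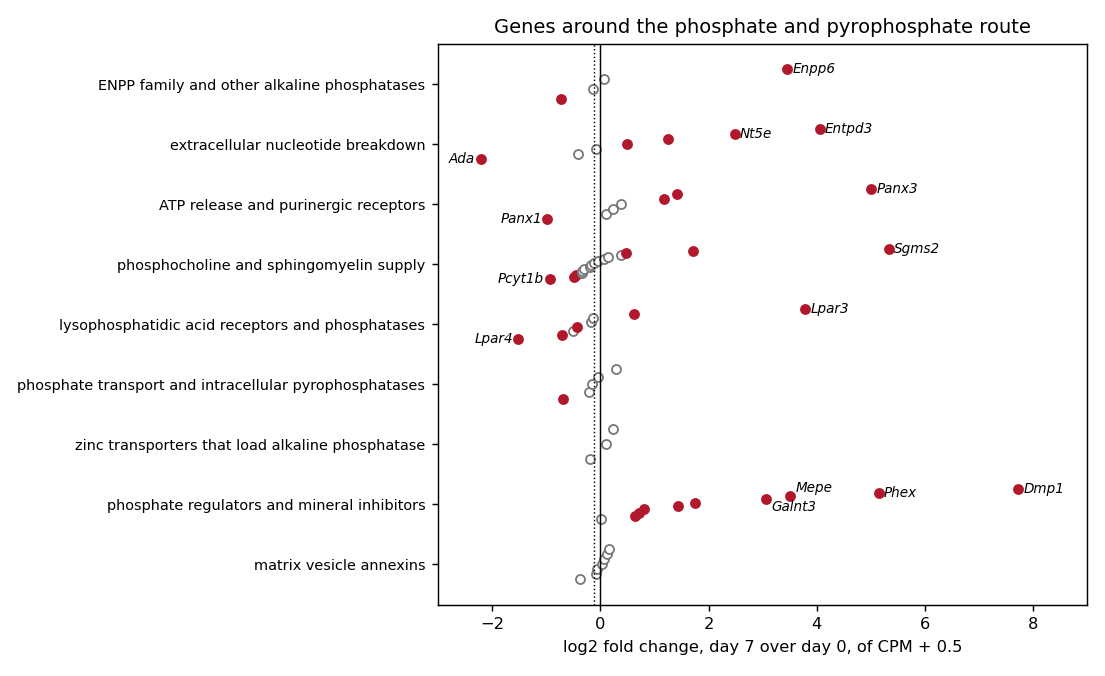
Log2 fold change of CPM + 0.5 from day 0 to day 7 (horizontal axis) of the 67 tested genes in 9 lists (vertical axis). Each point is 1 gene, filled in red where the limma adjusted p is under 0.05, the solid line is 0 and the dotted line is the median of all genes, -0.11. Dmp1, Sgms2, Phex and Panx3 have log2 fold changes above 5, and most other genes lie near 0.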

How the data were processed

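The members, the gene lists and the tests were chosen with earlier results of these data known. Per the labels and the methods, the authors depleted ribosomal RNA, aligned reads with STAR 2.0.4b to GRCm38 with Ensembl release 76 and counted uniquely aligned, unambiguous reads with featureCounts. The authors deposited CPM (reads scaled to the library's reads on genes) and RPKM (CPM per kilobase of gene model), in one pair of tables for day 0 and day 7 and another for day 4. Repeated lines of a gene (276 and 273) were used once, and tables were joined by Ensembl identifier.

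All CPM values were whole multiples of 1 read (100% per library, tolerance 0.01), so reads were recovered. All replicate pairs differed by more than sampling noise. The labels say only that the 3 libraries of a stage are separate samples, and the methods call them biological replicates, so p-values measure the spread between libraries. CPM are not counts, so the main test was limma 3.58.1 (R 4.3.3) with its trend option on log2(CPM + 0.5). It took in 12712 genes whose mean CPM reached 1 and left out 11075 genes with reads. Such folds understate changes of low genes. With 42.9 prior and 4 residual degrees of freedom, a gene's own replicates count little in its p-value. Alternatives were pseudocounts, filters, the RPKM table, median-of-ratios scaling, edgeR 4.0.16, DESeq2 1.42.0 and TMM with voomWithQualityWeights on recovered reads, a replicate block and each library left out. Of 144 listed symbols 140 matched, and the lists held the markers of 8 cell types. The text names all 9 members, the largest rise, the largest fall and the highest mean RPKM of each list, and the 5 genes most like Alpl, Phospho1 and Enpp1, of which 1 is not reported here. Coordinates come from GENCODE M21 and starts from RefSeq. Tables and figures were made with Python 3.11.15, pandas 2.3.3 and matplotlib 3.10.9. The floor of detection was 3 reads and covers counting error only.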

Additional observations from a re-analysis of the deposited data

How the results depend on the processing

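Alpl, Phospho1, Smpd3, Enpp1 and Ank kept their direction and their side of the threshold in 19 of 19 alternatives, and Enpp2 in 18 of 18, since it was not tested at a mean CPM of at least 5. The other calls moved as follows. Of all genes, 1602 were higher at day 7, and 2843 after median-of-ratios scaling, 2774 with edgeR, 2581 with DESeq2 and 3008 with TMM and voomWithQualityWeights, or 1174 to 1603 with 1 library left out. Of all genes, 2369 were lower, and 1527 (without day 0 replicate 2) to 4696 (without day 0 replicate 3) with 1 library left out. In alternatives chosen after seeing the data, 4291 were lower when the 3 genes with ribosomal sequence were left out of the totals and 4232 without the 2 libraries richest in it. Robust variances, also added then, moved no call of a member. The related lists had 10 lower genes, 7 to 22 with 1 library left out, and 19 and 18 in those added alternatives. For Slc20a1 the log2 fold change of 0.031 ranged from -0.13 to 0.27 with 1 library left out and was -0.0377 and -0.0868 in the added alternatives. Slc20a2 passed with voomWithQualityWeights (0.30), and Entpd5 after median-of-ratios scaling (0.25), with edgeR (0.24) and with voomWithQualityWeights (0.23). Anxa5 turned from -0.0637 to 0.0461 after median-of-ratios scaling, 0.0380 with edgeR, 0.0465 with DESeq2 and 0.0447 with voomWithQualityWeights. As CPM ratios, which leave out gene length, Alpl to Enpp1 was 2.21, 1.47 and 10.2 at day 0, 4 and 7, Phospho1 to Enpp1 was 0.0412, 0.0162 and 0.174, and Alpl to Ank at day 7 was 4.05, because the gene models differ in length. The cause of the other moves was not tested.

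Replicate numbers did not pair the day 0 and day 7 libraries, whose same-numbered deviations correlated at -0.02, -0.17 and -0.44. For day 0 and day 4 these values were 0.04, 0.07 and -0.25. For day 4 and day 7 they were 0.1, 0.28 and 0.33, against -0.33 to 0.02 between different numbers, and that step has no test to which a block could be added. With a replicate block 1463 genes were higher and 1950 lower, and 6 members were higher. Members with 5 to 33 reads per day 0 library (Phospho1, Smpd3 and Enpp2) are limited most by depth.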
